A study of Mus musculus with 6 samples.

Results

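Cholesterol efflux genes and targets of the liver X receptors (LXRs) were followed as a set of 10 genes, Nr1h2, Nr1h3, Abca1, Abcg1, Apoe, Apoc1, Mylip, Srebf1, Scd1 and Scd2, out of 53819 gene symbols in the count table, of which 17155 had enough reads to be tested. The genes were listed by symbol and were chosen from results of the comparison described here, budesonide against untreated, so their fold changes and calls are a description of that choice and support nothing further. All 10 passed the filter on low counts. The samples were gastruloids, 3D aggregates of the mouse embryonic stem cell (ESC) line E14, profiled by stranded mRNA sequencing. The 3 untreated libraries had no stated vehicle or time of collection, and the other 3 came from aggregates that received budesonide, a glucocorticoid drug, during 80 h. The series asks how the drug alters the transcriptional profile, under a title on cell-cell adhesion, symmetry breaking and pluripotency. The labels name 1 ESC line and do not say whether replicates were separate cultures, so errors and p-values below measure only how far these libraries differ, which may be technical variation.

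LXRs are nuclear receptors that bind oxysterols, oxidized forms of cholesterol, and act on DNA as a pair with a retinoid X receptor (RXR). When sterols accumulate, they raise genes that carry cholesterol out of the cell (Abca1, Abcg1), genes for the apolipoproteins that accept it (Apoe, Apoc1), a ligase that removes lipoprotein receptors (Mylip), and genes of fatty acid synthesis and desaturation (Srebf1, Scd1). The opposite arm of sterol control, led by SREBP-2 (Srebf2), raises cholesterol synthesis and uptake when sterols are scarce.

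The set was mostly higher with budesonide. By the fitted fold, both export pumps, Apoe and Scd1 stood more than 2-fold above untreated. Apoc1, Mylip, Srebf1 and Nr1h2 stood less than 2-fold above it, and Scd2 and Nr1h3 were not called. The 95% intervals of the fold include 2 for Scd1 (1.88 to 2.25), Apoc1 (1.24 to 2.84) and Mylip (1.31 to 2.04), so the side of 2 on which they lie is not settled. In all, 8 of the 10 genes were called higher and none lower (quasi-likelihood test of edgeR, with p adjusted over all genes tested and a threshold of 0.05). None had an unadjusted p under 0.05 in the lower direction, and in DESeq2 7 were called higher and 0 lower. Of all tested genes, 15.2% were called higher and 13.5% lower. In the same 8 genes every budesonide library lay above every untreated library, which held for 19.8% of tested genes in that direction and, in the lower direction, also for 19.8%. Since the genes were taken from this contrast, nothing is read from these shares.

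**Figure D1:**
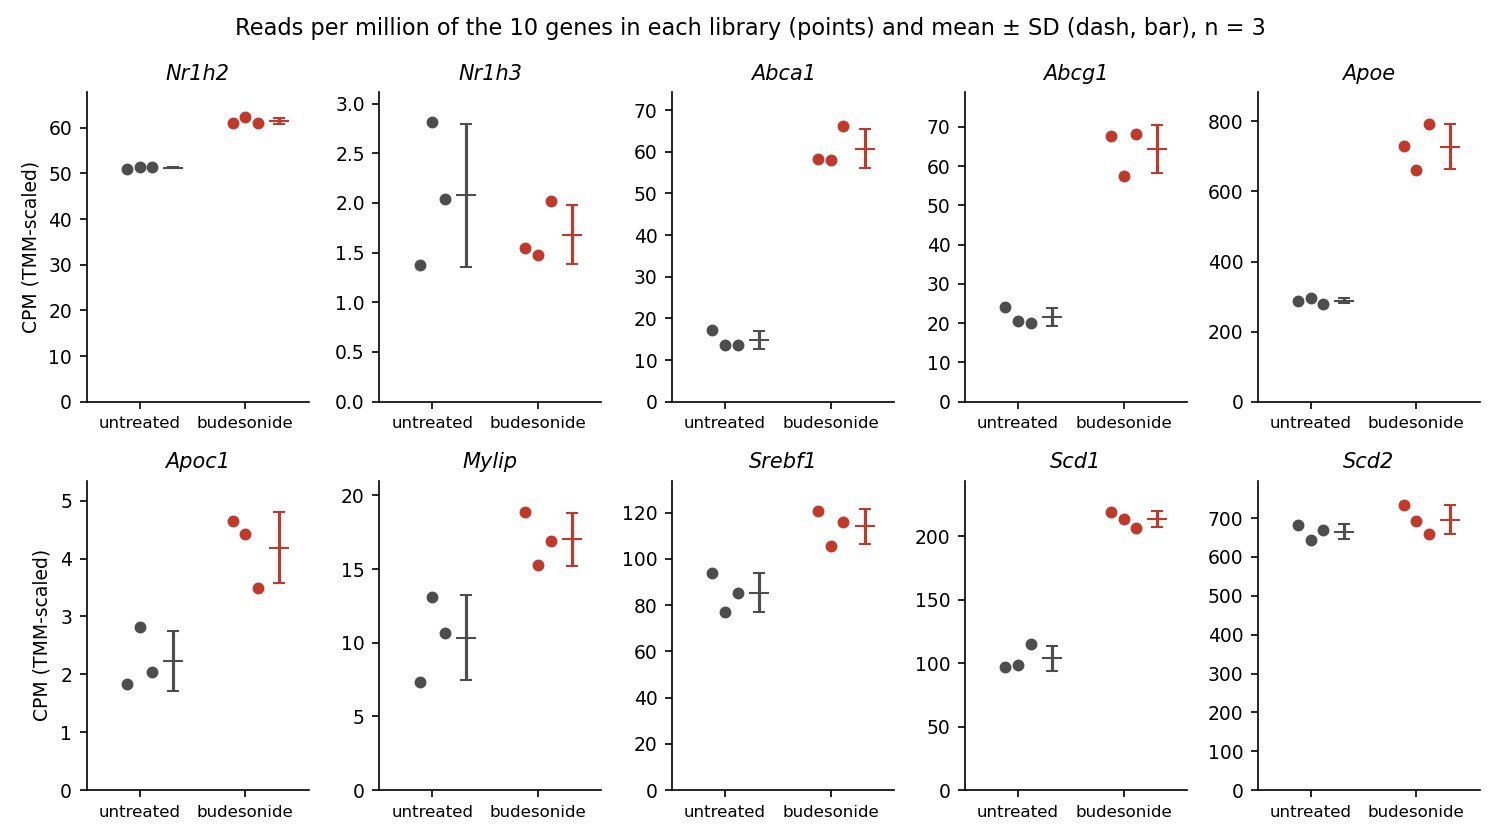
Depth-scaled counts (CPM, scaled by TMM) of each gene in each library, with 3 untreated (grey) and 3 budesonide (red) points per panel and the mean ± SD beside them; each vertical axis starts at 0. In 8 panels the 2 groups of points do not overlap, and in the panels of Nr1h3 and Scd2 they do.

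Libraries held 5666168 to 7476862 counted reads. Values are given as CPM, read counts divided by the size of the library after TMM scaling, a unit in which 3 reads correspond to 0.422 to 0.552 CPM. As a gauge of stray signal, 1519 sensory receptor genes, which stem cells are not known to use, had a 95th percentile of 1.83 to 2.21 CPM per library and a highest value of 5.15 to 8.64 CPM. Of 10 markers of pluripotent cells all were measured, and Pou5f1, which was not called, was at 733.9 and 776.0 CPM without and with budesonide. Sox2, Nanog, Utf1, Dppa4 and Dppa5a were called higher, by log2 fold changes of 0.50 (Nanog) to 0.89 (Sox2). Epcam and Cdh1 were called lower, at -0.59 and -0.36. Of all tested genes 15.2% were called higher and 13.5% lower. In such bulk samples fewer cells of a type and less RNA per cell cannot be told apart.

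The receptors themselves differed in abundance. Nr1h2, which encodes LXRβ, the form found in most tissues, was at 51.1, 51.3 and 51.4 CPM in the untreated and 61.1, 62.2 and 61.0 CPM in the budesonide libraries. The groups did not overlap, and the difference was a log2 fold change of 0.26 ± 0.08 (SE), or 1.20-fold. This call was lost with no scaling factors, that is on plain library totals, and with no filter on low counts. Nr1h3, which encodes LXRα, the form of liver and macrophages, had 9, 20 and 13 reads untreated and 11, 10 and 11 with budesonide, that is 1.37, 2.81 and 2.04 against 1.55, 1.47 and 2.02 CPM. These values overlap each other and the range of the sensory receptor genes, and the log2 fold change of -0.33 ± 0.40 (SE) was not called. Per kilobase of exon (union of GENCODE M21 exons, a build older than that of the counts), the level of Nr1h2 was 13.7 to 27.9 times that of Nr1h3 in the untreated libraries and 22.6 to 31.7 times in the budesonide libraries.

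Abca1, the pump that hands cholesterol and phospholipid to lipid-poor apolipoprotein A-I, was the most raised of the set. It had 113, 97 and 86 reads in the untreated and 413, 394 and 360 in the budesonide libraries, or 17.2, 13.6 and 13.5 against 58.2, 58.0 and 66.2 CPM. The lowest treated library was far above the highest untreated one. The means were 14.8 ± 2.11 and 60.8 ± 4.68 CPM (SD, n = 3), a log2 fold change of 2.03 ± 0.11 (SE), and 0.0408% of tested genes had a higher one. Abcg1, which passes cholesterol on to mature high-density lipoprotein particles, was at 24.2, 20.7 and 19.95 CPM untreated, against 67.6, 57.4 and 68.2 CPM after the drug. The log2 fold change was 1.57 ± 0.10 (SE), or 2.97-fold. Per kilobase of exon, Abca1 stood at 1.43 ± 0.20 and Abcg1 at 2.96 ± 0.31 CPM per kb (SD, n = 3) in untreated libraries, and at 5.87 ± 0.45 and 8.83 ± 0.83 CPM per kb with budesonide, so that Abcg1 was the higher of the pumps in each group.

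The upstream sequences are shown for Abca1 and Srebf1 because they were the only members, of 6 with a window in the RefSeq table (Abca1, Apoe, Mylip, Srebf1, Nr1h2 and Nr1h3, 11 windows), that held a close match to the DR4 element, the site that an LXR and RXR pair binds. DR4 is a direct repeat of AGGTCA with 4 bases between the repeats, and the 250 bases before each start were searched on both strands. Both windows held a match with 3 mismatches among 12 letters, and so did 18.5% of all 32851 windows searched, so a match at this level is common. The matches, written on the strand that reads as the repeat, with the half-sites in capitals, were identical in 14 of 16 letters, and the third line gives that of Fasn, discussed next.

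Abca1 match: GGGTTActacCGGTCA

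Srebf1 match: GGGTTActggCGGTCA

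Fasn match: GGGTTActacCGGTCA

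The Abca1 match lay 67 to 52 bases before the start at chr4:53159947-53159962, the Srebf1 match 182 to 167 bases before the start at chr11:60210638-60210653, and the Fasn match 225 to 210 bases before the start at chr11:120824757-120824772 (RefSeq, GRCm38.p6, all 3 genes on the minus strand, with the matches antisense to the gene). The half-sites GGGTTA and CGGTCA with 4 bases between them, letter for letter, occurred in 3 of the 32851 windows, those of Abca1, Srebf1 and Fasn. These half-sites were taken from the Abca1 match after the matches of Abca1 and Srebf1 were seen. The windows of Abca1 and Srebf1 therefore had to hold them, and their rarity is no support for either match. Fasn encodes fatty acid synthase and is described below with the other LXR targets. A match is a description of these letters, and whether it is used as a site was not tested here.

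The windows are given in the direction of the gene, in lower case with the match in capitals, for Abca1 at chr4:53159896-53160145 and for Srebf1 at chr11:60210472-60210721, the most downstream of its 3 starts in the table (RefSeq, GRCm38.p6, minus strand).

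Abca1: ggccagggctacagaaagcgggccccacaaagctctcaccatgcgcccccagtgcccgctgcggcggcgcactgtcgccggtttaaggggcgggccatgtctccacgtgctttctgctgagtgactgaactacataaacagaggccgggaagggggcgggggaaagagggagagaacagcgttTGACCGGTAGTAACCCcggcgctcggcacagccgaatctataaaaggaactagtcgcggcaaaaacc

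Srebf1: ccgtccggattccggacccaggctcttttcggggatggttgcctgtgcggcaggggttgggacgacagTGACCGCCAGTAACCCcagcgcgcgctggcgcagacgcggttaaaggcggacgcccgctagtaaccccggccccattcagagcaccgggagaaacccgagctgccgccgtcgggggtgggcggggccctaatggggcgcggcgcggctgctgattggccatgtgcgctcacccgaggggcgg

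The same windows were searched for the glucocorticoid response element, AGAACA and TGTTCT with 3 bases between them. None of the 11 member windows came within 3 mismatches of it, which 12.3% of all windows did. That says only that these letters are not in these 250 bases.

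Apoe, the apolipoprotein that carries cholesterol between cells, had the highest level of the set per kilobase of exon. It was at 289, 295 and 280.1 CPM in the untreated and at 729, 663 and 792 CPM in the budesonide libraries, with no overlap. The log2 fold change was 1.34 ± 0.06 (SE), or 2.53-fold, and it rested on 5774 reads untreated and 13987 with budesonide. Apoc1, which encodes a small apolipoprotein next to Apoe on chromosome 7, had 12, 20 and 13 reads untreated and 33, 30 and 19 with budesonide, or 1.83, 2.81 and 2.04 against 4.65, 4.41 and 3.49 CPM. The groups did not overlap. All 6 values lay below the highest sensory receptor gene of their library. The budesonide values and that of untreated replicate 2 lay above the 95th percentile of those genes. Untreated replicate 3 lay at that percentile and untreated replicate 1 below it. Its log2 fold change of 0.91 ± 0.31 (SE) lost its call in DESeq2, with no filter on low counts, and without untreated replicate 1, untreated replicate 3 or budesonide replicate 1.

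The genes on the other side of Apoe were lower. Tomm40, a mitochondrial import pore gene and its immediate neighbour there, fell from 215.6 to 175.7 CPM, by 0.30 on the log2 scale (SE 0.07; edgeR adjusted p = 0.000315), and Nectin2, the next gene along, fell by 0.69 on the log2 scale (SE 0.08; edgeR adjusted p = 7.17e-10). These genes were taken for their place beside Apoe. Apoc2 and Apoc4, the other apolipoprotein genes of the cluster, were at 0.103 and 0.741 CPM in untreated libraries, too few reads for a test.

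Mylip, also known as IDOL, encodes a ubiquitin ligase that marks lipoprotein receptors for destruction. It was at 7.32, 13.1 and 10.7 CPM untreated and at 18.9, 15.3 and 16.9 CPM with budesonide. The untreated libraries varied widely (a coefficient of variation of 27.9% against 10.5%), yet the groups did not overlap, and the log2 fold change was 0.71 ± 0.16 (SE).

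Srebf1, which encodes SREBP-1, the transcription factor of fatty acid synthesis, was at 93.7, 76.9 and 85.3 CPM untreated and at 120.6, 105.5 and 115.8 CPM with budesonide. The groups were apart by a small margin, at a log2 fold change of 0.42 ± 0.07 (SE), or 1.34-fold. The gene has several starts, of which the LXR-responsive form, SREBP-1c, uses a downstream one, and counts per gene do not separate them.

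The 2 stearoyl-CoA desaturases, which place the double bond in newly made fatty acids, behaved differently. Scd1 was at 97.4, 98.6 and 115.5 CPM in the untreated and at 219, 214 and 207 CPM in the budesonide libraries, with a log2 fold change of 1.04 ± 0.07 (SE). Scd2, the desaturase of embryo and brain, was at 681, 645 and 670.1 CPM untreated and at 733, 693 and 659 CPM with budesonide. The Scd2 groups overlapped, and its log2 fold change of 0.06 ± 0.05 (SE) was not called and was -0.02 with no scaling factors. Of the reads of both genes together, Scd1 took 12.5% (95% Wilson interval 11.6 to 13.4), 13.3% (12.4 to 14.2) and 14.7% (13.8 to 15.7) in the untreated libraries. With budesonide it took 23.0% (22.03 to 24.0), 23.6% (22.5 to 24.7) and 23.9% (22.7 to 25.1), and these intervals cover counting error only. The lowest treated share was above the highest untreated one, with no overlap of their intervals. Per kilobase of exon, the level of Scd2 was 5.195 to 6.26 times that of Scd1 in untreated and 2.85 to 3.00 times in budesonide libraries. The 2 genes are related in sequence and can trade some reads, which was not tested.

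**Figure D2:**
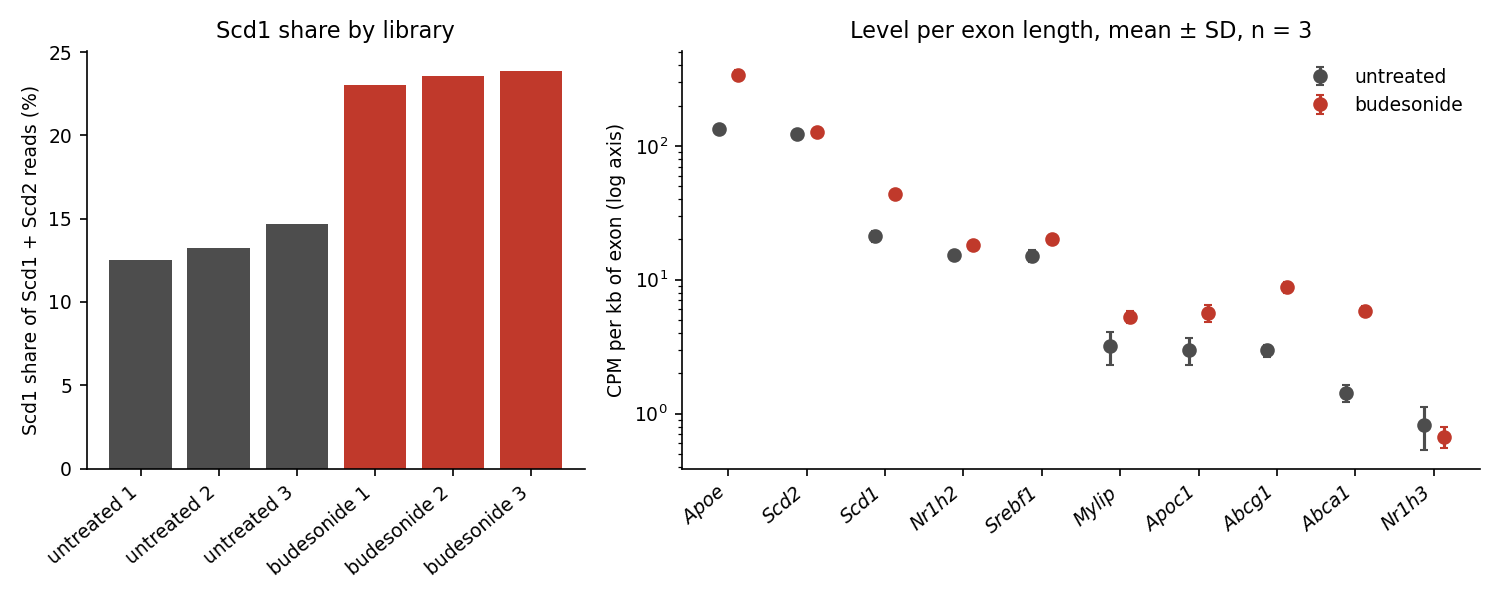
Left, the share of Scd1 in the summed Scd1 and Scd2 reads of each library, in percent; right, the level of each gene per kilobase of exon on a log axis, mean ± SD over 3 libraries per group (grey untreated, red budesonide). The share is 12.5 to 14.7% in untreated and 23.0 to 23.9% in budesonide libraries, and Apoe and Scd2 have the highest levels and Nr1h3 the lowest in both groups.

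Ordered by level per kilobase of exon, the untreated libraries gave Apoe (135 ± 3.49 CPM per kb; SD, n = 3), Scd2 (122 ± 3.43), Scd1 (21.2 ± 2.07), Nr1h2 (15.3 ± 0.05), Srebf1 (15.1 ± 1.49), Mylip (3.20 ± 0.89), Apoc1 (3.00 ± 0.69), Abcg1 (2.96 ± 0.31), Abca1 (1.43 ± 0.20) and Nr1h3 (0.83 ± 0.29). Neighbours whose libraries overlapped were Nr1h2 and Srebf1, and Mylip, Apoc1 and Abcg1. The untreated Nr1h2 libraries had 335, 365 and 327 reads, and their small SD is not the precision of that level. With budesonide Abcg1 (8.83 ± 0.83) and Abca1 (5.87 ± 0.45) stood sixth and seventh, above Apoc1 (5.63 ± 0.82) and Mylip (5.27 ± 0.55). The libraries of Abca1, Apoc1 and Mylip overlapped each other. Exons of another annotated gene covered at most 1.94% of any member's exon length, in Srebf1, which shares 109 bases with Rai1 on the other strand. Rai1 was at 91.6 CPM untreated and 48.3 CPM with budesonide.

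**Figure D3:**
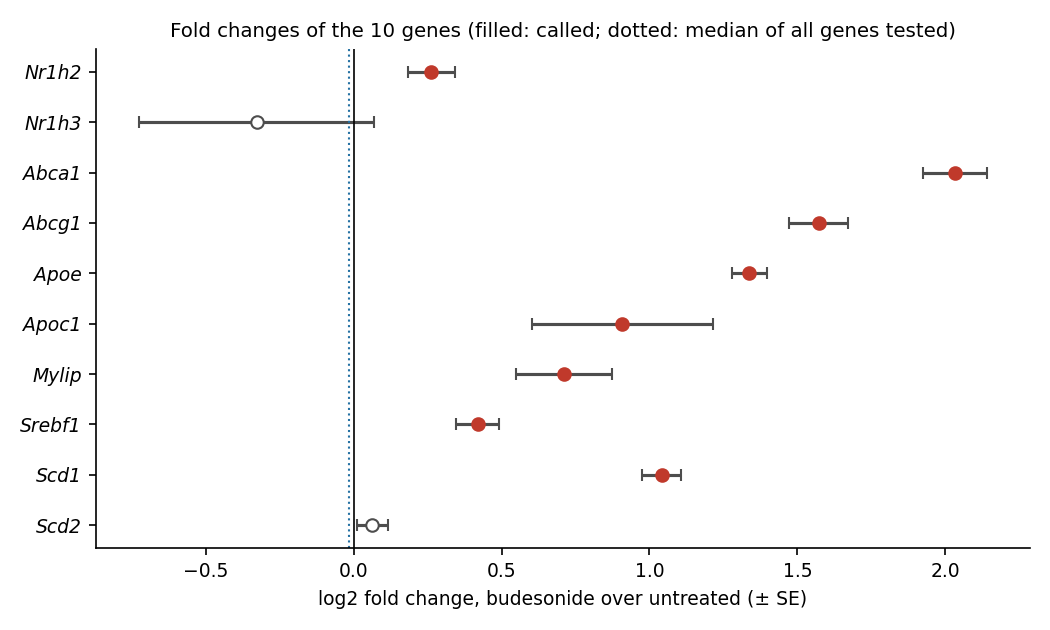
Log2 fold change of each gene, budesonide over untreated, ± SE from the edgeR fit, ordered by role with receptors at the top; filled points were called, open points not, and the dotted line is the median of all genes tested (-0.02). Abca1 lies furthest right at 2.03, and Nr1h3 and Scd2 are the open points.

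The genes whose values over the 6 libraries were most like those of Abca1 were sought among 11083 genes that averaged 5 CPM or more, by the root mean square difference of log2 CPM centred on each gene's mean. They were Fabp3, a fatty acid binding protein (0.0774), Phf11d, a PHD finger gene (0.115), Mymx, a cell fusion peptide (0.123), Nr0b1, the orphan receptor Dax1 (0.189), and Pdk4, a kinase that blocks pyruvate oxidation (0.195). Within the set Abcg1 came closest, at 0.242 and place 11, then Apoe, at 0.364 and place 46. With 2 groups this measure mainly picks genes with a like fold change.

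Other genes of the pathway, taken from lists fixed by known role with earlier results of these data known, held calls in both directions. The counts of each list below stand beside 15.2% of all tested genes called higher and 13.5% called lower, with a median log2 fold change of -0.02, and nothing particular to a list is read from them. Of 14 other LXR targets 9 were tested, 2 rose and 3 fell, with a median of -0.14. Pltp, a phospholipid transfer protein, rose from 20.2 ± 2.26 to 31.0 ± 5.86 CPM (SD, n = 3; edgeR adjusted p = 0.000138), and Lpcat3, which builds polyunsaturated phospholipids, from 13.6 ± 1.57 to 19.9 ± 0.82 CPM (adjusted p = 0.00155 by edgeR). Arl4c, a small GTPase linked to cholesterol secretion, fell from 67.3 ± 1.62 to 40.7 ± 3.26 CPM (edgeR adjusted p = 1.35e-09), as did Mlxipl, the carbohydrate sensor ChREBP (log2 fold change -0.66 ± 0.19, SE). Fasn, with the match shown above, fell from 744 ± 22.7 to 674 ± 40.1 CPM, a log2 fold change of -0.14 ± 0.05 (SE; edgeR adjusted p = 0.0401). The Fasn call was lost in 6 of 12 alternatives (RLE scaling, DESeq2, and without untreated replicate 2 or 3 or budesonide replicate 1 or 2; edgeR and DESeq2 adjusted p over the alternatives 0.000358 to 0.257). The Mlxipl call was lost in DESeq2 and without untreated replicate 1 (adjusted p over the alternatives 0.00294 to 0.0787), and DESeq2 called 1 gene of the list lower in place of 3.

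Of 15 LXR partners and coregulators, all tested, 3 rose and 7 fell (median -0.16). Of the RXR genes, Rxra fell from 30.5 ± 1.601 to 17.9 ± 4.60 CPM (edgeR adjusted p = 4.19e-06) and Rxrg from 18.6 ± 0.82 to 7.70 ± 0.14 CPM (edgeR adjusted p = 4.00e-09). Rxrb, the highest of them in both groups, was at 33.7 ± 2.39 and 30.3 ± 1.52 CPM and was not called (edgeR adjusted p = 0.279). Coactivators Ncoa3 and Ncoa1 rose by 0.81 ± 0.06 and 0.60 ± 0.09 (log2 fold change, SE), and the corepressor Ncor1, which holds unliganded LXR targets silent, by 0.31 ± 0.05. Tbl1x, a part of the corepressor complex, fell by 0.29 on the log2 scale. The count of falls was 4 in DESeq2 and without untreated replicate 3 or budesonide replicate 2. Of 8 enzymes that make or break down oxysterols, 6 were tested and 1 fell. That was the mitochondrial sterol 27-hydroxylase Cyp27a1, at 4.199 ± 0.72 and 2.01 ± 0.24 CPM, a log2 fold change of -1.05 ± 0.31 (SE). Both means lay below the highest sensory receptor gene of every library (5.15 to 8.64 CPM), and the budesonide libraries had 16, 12 and 11 reads. The Cyp27a1 call was lost in DESeq2 and without untreated replicate 1 (adjusted p over the alternatives 0.00449 to 0.0719). No gene of that list rose in edgeR or in DESeq2, and 0 had an unadjusted p under 0.05 in that direction.

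Of 10 tested uptake receptors and their partners 2 rose and 3 fell (median -0.01), against 15.2% and 13.5% of all genes tested. Lrp8, an Apoe and reelin receptor and a Mylip substrate, fell from 115.8 ± 5.83 to 35.2 ± 2.93 CPM (edgeR adjusted p = 2.98e-22), and Lsr and Lrp1 fell by 0.60 and 0.32 on the log2 scale. Mylip acts on the receptor protein, which these mRNA counts do not measure. Megalin, Lrp2, an endocytic receptor of epithelia, rose from 118.0 ± 6.51 to 193 ± 3.03 CPM (edgeR adjusted p = 5.38e-13), and Sorl1 rose by 0.26 ± 0.07 (log2 fold change, SE). Of 15 other apolipoproteins and lipoprotein enzymes only 6 had enough reads, and none was called in edgeR or in DESeq2, with 0 at an unadjusted p under 0.05.

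Of 17 tested genes of intracellular cholesterol transport and storage, 7 rose and 1 fell (median 0.25). Npc2, which lifts cholesterol out of the lysosome, rose from 50.7 ± 3.86 to 78.1 ± 3.18 CPM (edgeR adjusted p = 1.10e-08), whereas its partner Npc1 was at 44.1 ± 3.57 and 47.8 ± 2.39 CPM (edgeR adjusted p = 0.373). Gramd1b, an Aster protein that moves plasma membrane cholesterol to the endoplasmic reticulum, rose by 0.66 ± 0.11 and the oxysterol binding protein Osbp by 0.45 ± 0.08 (log2 fold change, SE). Soat1, the enzyme that esterifies cholesterol for storage, was the gene that fell, going from 160.5 ± 10.8 to 103.7 ± 6.76 CPM (edgeR adjusted p = 1.70e-10). Among 12 tested relatives of the 2 pumps (other ABCA and ABCG transporters) 1 rose, Abcg2, by 0.22 ± 0.08 (log2 fold change, SE), and none fell in edgeR or DESeq2 or at an unadjusted p under 0.05. The number of rises ran from 0 to 2 over the alternatives. The Abcg2 call was lost in 8 of 12 alternatives, all but RLE scaling, the replicate block and the fits without budesonide replicate 2 or 3 (adjusted p over the alternatives 0.0252 to 0.233). Abcg4, the closest relative of Abcg1, was at 1.30 ± 0.41 and 0.972 ± 0.46 CPM, too low for a test.

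The SREBP pathway and sterol synthesis list gave 9 rises and 2 falls among 22 tested genes, with a median of 0.12. Srebf2 rose from 188 ± 8.28 to 243 ± 9.47 CPM (edgeR adjusted p = 2.00e-06), the squalene synthase gene Fdft1 by 0.50 ± 0.07 and the lanosterol demethylase Cyp51 by 0.39 ± 0.07 (log2 fold change, SE). Scap, which escorts SREBPs out of the endoplasmic reticulum, fell from 57.0 ± 7.65 to 39.9 ± 2.91 CPM (edgeR adjusted p = 1.61e-05). Insig1, which retains SREBPs when sterols are abundant, also rose by 0.27 ± 0.08 (log2 fold change, SE). These counts depended on scaling: with no scaling factors 4 genes rose and 5 fell. The falls numbered 1 in DESeq2 and without untreated replicate 1, 2 or 3 or budesonide replicate 1. The rises numbered 5 with no filter on low counts and 4 without untreated replicate 2, and Insig1 lost its call in both and with no scaling factors (adjusted p over the alternatives 0.00286 to 0.0764).

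Among the other desaturases, elongases and acyl-CoA synthetases, 5 of 15 tested rose and 4 fell (median 0.03), and the rises numbered 3 with no scaling factors and with no filter on low counts. The polyunsaturated fatty acid desaturases Fads1 and Fads2 rose by 0.65 ± 0.08 and 0.39 ± 0.07 and the arachidonate-preferring Acsl4 by 0.46 ± 0.07 (log2 fold change, SE). Acsl3, Acsl5 and Acsl6, synthetases that load other fatty acids onto coenzyme A, fell by 0.80, 1.03 and 0.67 on the log2 scale. Of the near relatives of Scd1, Scd3 was at 1.85 ± 0.65 and 1.74 ± 0.47 CPM, within the range of the sensory receptor genes (edgeR adjusted p = 0.922), and Scd4 had too few reads for a test.

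**Figure D4:**
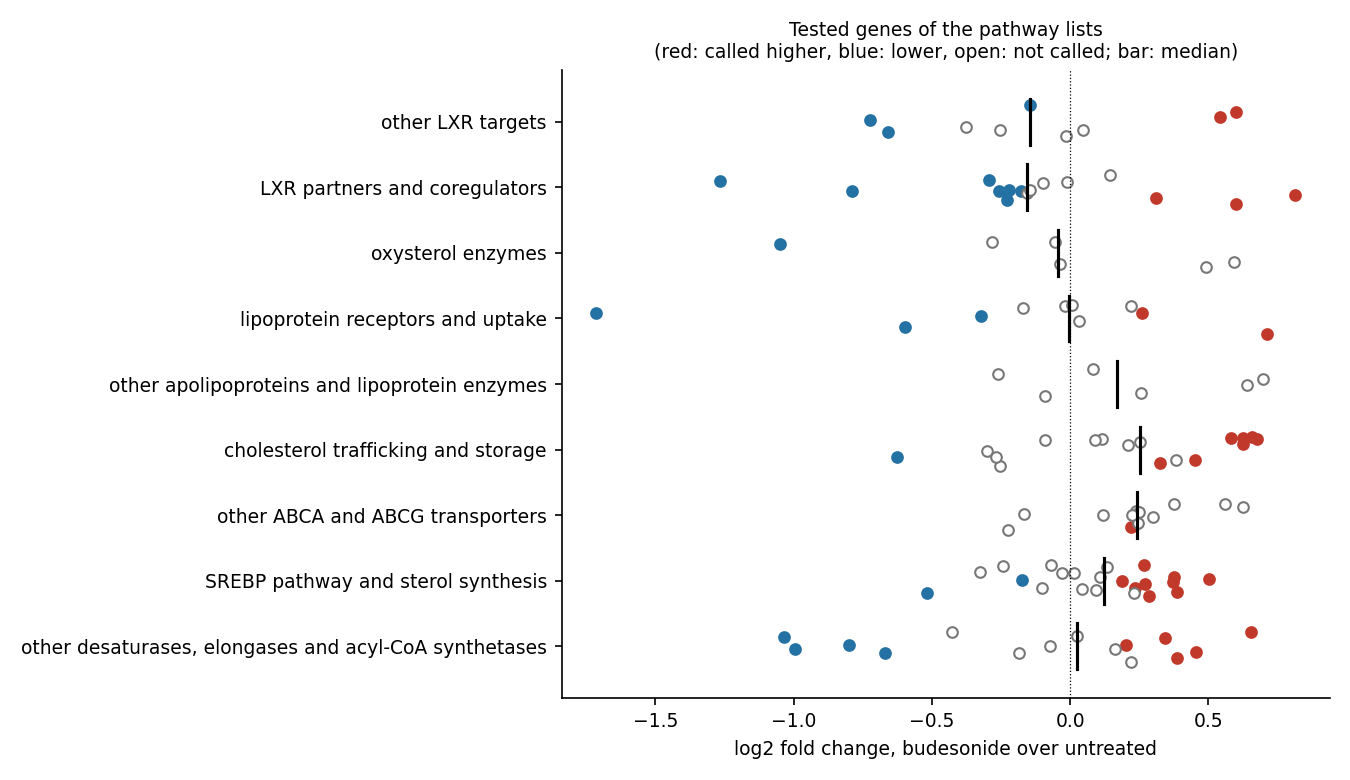
Log2 fold change, budesonide over untreated, of each tested gene in the 9 pathway lists, with called genes filled (red higher, blue lower), genes not called open, and a bar at the median of each list. Medians run from -0.16 for the partners and coregulators to 0.25 for cholesterol trafficking, and the lowest point is Lrp8 at -1.71.

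Apoe is also abundant in macrophages and in the visceral endoderm, so markers of these were summed. The 12 macrophage markers reached 20.6 to 23.7 CPM together in the untreated and 20.7 to 22.3 CPM in the budesonide libraries, only 3 had enough reads to be tested, and none was called in edgeR or DESeq2 or had an unadjusted p under 0.05. The 16 markers of visceral and extraembryonic endoderm summed to 44.3 to 56.1 CPM untreated and 38.2 to 41.9 CPM with budesonide. The 11 tested had a median log2 fold change of -0.31. Of these, Foxa2, an endoderm factor, fell from 11.2 ± 2.85 to 0.811 ± 0.43 CPM (SD, n = 3). Trf, the transferrin gene, rose from 4.06 ± 0.68 to 9.75 ± 0.80 CPM, which offsets part of the Foxa2 drop in the sum. The other 9 were not called, and Afp, Ttr, Apoa1, Amn and Sox7 had too few reads. At an unadjusted p under 0.05 in edgeR, 3 of the tested endoderm markers were lower and 1 higher, and DESeq2 called 1 lower and 1 higher. No marker in either list was at 0 in all 6 libraries. A value above 0 does not by itself show expression, since the sensory receptor genes had a median of 0.18 to 0.44 CPM per library. Summed fibroblast markers were 22.9 to 25.5 CPM untreated and 15.8 to 18.0 CPM with budesonide, with 2 of 6 tested lower and none higher in edgeR, 0 of either in DESeq2, and none higher at an unadjusted p under 0.05. The 8 neural progenitor markers, of which 4 were tested, summed to 178 to 190.1 CPM untreated and 67.0 to 68.6 CPM with budesonide. Most of that sum and of its difference was Nes, the nestin gene, at 130.9 ± 5.21 and 36.0 ± 1.958 CPM. Sox3 and Ncan were lower too, and Pax6 was higher, at 9.48 ± 0.80 and 16.9 ± 1.94 CPM. Nes, Sox3, Ncan, Pax6, Foxa2 and Trf are named here after their values were seen. The 10 pluripotency markers summed to 2099 to 2131 CPM untreated and 2233 to 2404 CPM with budesonide, with 5 higher and 2 lower. Beside these marker counts, 15.2% of all tested genes were called higher and 13.5% lower, and nothing particular to a marker list is read from the counts. The part of the marker shifts in the values of the set was not tested.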

How the data were processed

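Stranded mRNA libraries of 3 untreated and 3 budesonide samples were used. Per the submitters' processing notes the authors ran bcl2fastq, cutadapt 2.5, STAR 2.7.5c, featureCounts 2.0 and DESeq2 on build GRCm39; the sources used here do not state parameters, annotation version or strand setting, so reads of overlapping and antisense genes cannot be told apart. The authors deposited raw counts per gene symbol, 1 column per library; a further deposited table of scaled counts was not used. Sample titles gave the groups and their replicate numbers.

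Tests ran on the deposited counts in edgeR 4.0.16 (R 4.3.3): filterByExpr (minimum count 10, minimum total 15), TMM, robust quasi-likelihood fits on group alone, Benjamini-Hochberg over all 17155 genes, threshold 0.05. Standard errors come from the F statistic. Libraries of a group differed by a chi-square of 1.43 to 3.14 per gene (genes with at least 20 reads), more than counting noise alone gives, so each was kept as a library of its own; this does not show separate cultures. Alternatives were RLE, upper quartile and no scaling, DESeq2 1.42.0, no filter, the replicate block and each library left out. Members, lists and tests were chosen with earlier results of these data known. Named genes are all members, up to 3 higher and 3 lower per pathway list by smallest adjusted p (mean of at least 1 CPM), counterparts of members fixed by role, and the 5 genes most like Abca1 (log2 CPM, prior count 2); 3 genes the rule names are not reported here and stay in the counts of their lists. Promoter windows are RefSeq's, GRCm38.p6. Wilson intervals are at 95% confidence.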

Additional observations from a re-analysis of the deposited data

How the results depend on the processing

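The numbers of the set called higher ran from 6 (no filter on low counts) to 8, and none was called lower under any of the 12 alternatives. Abca1, Abcg1, Apoe, Mylip, Srebf1 and Scd1 were called higher under each of the 12. The count of all genes lower with budesonide was 2316 and 1321 in DESeq2; the cause was not tested. Of all called genes 52.9% were higher, and 38.6% with no scaling factors. Signs near 0 turned for named genes that were not called: Scd2 was at -0.015 (log2 fold change) with no scaling factors, and Scd3 from -0.32 to 0.21 when 1 library was left out. With the replicate block 2649 genes were called higher and 2337 lower, and 8 of the set higher. Deviations of same-numbered libraries correlated at 0.0801, 0.103 and -0.0711 across genes, so the numbers were not taken as pairing the samples. Differently numbered libraries correlated at -0.159 to 0.0833, and the largest value of all was the 0.103 of the libraries numbered 2. Depth limits Nr1h3 and Apoc1, with 74 and 127 reads over all libraries.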
